A study of Mus musculus with 18 samples.

Results

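The genes examined here encode the peptide hormones of the gut endocrine cells and 2 further products of those cells: *Gip*, *Ghrl*, *Cck*, *Nts*, *Sst*, *Gcg*, *Pyy* and *Sct* for the hormones, *Tph1* for serotonin synthesis and *Chga* for the secretory granule. They were taken by gene symbol from the expression tables, and all 10 of them are among the 55487 genes counted. The rule uses no measured value, but the genes were chosen with earlier results of these data known. The tissue was whole-thickness ileum, the last segment of the small intestine, with 1 RNA-seq library from each of 18 mice. Of these, 6 were controls, 6 were IEC-*Ppara* heterozygous and 6 were IEC-*Ppara* homozygous. IEC-*Ppara* mice carry 1 or both copies of the conditional CAG-*Ppara*,-*EGFP* transgene together with *Villin-CreERT2*, a tamoxifen-dependent Cre that the *Villin* promoter drives in the intestinal epithelium, and Cre turns on FLAG-tagged *Ppara* and EGFP. The control littermates lacked the Cre. All 3 groups shared the C57BL6/J background and a chow diet, were male and female mice 8 to 13 weeks old, received tamoxifen (100 mg/kg) on 3 days and were collected 2 weeks later. Each of the IEC-*Ppara* groups held 2 females and 4 males, and the control group held 3 of each sex. Presence of the Cre and activation of the transgene cannot be told apart against these controls.

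Enteroendocrine cells are scattered single cells of the gut epithelium that sense nutrients and release hormones, and they make up a small minority of the epithelium. Glucose-dependent insulinotropic polypeptide (GIP), from K cells, and glucagon-like peptide 1, cut from the *Gcg* product in L cells, are the incretins that amplify insulin secretion after a meal. K cells are most frequent in the duodenum and L cells in the distal bowel, whereas serotonin-producing enterochromaffin cells and somatostatin-producing D cells occur along the whole gut. PPARα is a nuclear receptor activated by fatty acids that turns on genes of fat oxidation, and it binds DNA as a pair with RXR at repeats of the letters AGGTCA.

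Promoters are shown for the 5 genes whose homozygous levels, apart from 1 library, were below every control, *Gip*, *Ghrl*, *Cck*, *Nts* and *Tph1*. Each window is 300 bases of RefSeq sequence on GRCm38.p6, from 250 bases before a transcription start to 50 after it, read 5′ to 3′ on the strand of the gene. All 10 genes matched, with 15 windows in all. For *Ghrl* and *Tph1*, which have several, both the window whose start lies nearest to the start of the counted gene and a window that holds AGGTCA are given. Capitals mark 3 sets of letters searched on both strands: AGATAA, bound by GATA factors, TAATNA, a core of homeodomain motifs, and AGGTCA, the letters that nuclear receptors bind.
Gip, chr11:96024295-96024594, plus strand: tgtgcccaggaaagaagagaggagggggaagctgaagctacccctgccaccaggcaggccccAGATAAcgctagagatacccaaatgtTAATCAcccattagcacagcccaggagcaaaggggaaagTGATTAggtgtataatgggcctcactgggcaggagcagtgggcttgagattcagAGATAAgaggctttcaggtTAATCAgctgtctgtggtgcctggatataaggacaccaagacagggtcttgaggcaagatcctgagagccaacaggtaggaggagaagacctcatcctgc
Cck, chr9:121495645-121495944, minus strand: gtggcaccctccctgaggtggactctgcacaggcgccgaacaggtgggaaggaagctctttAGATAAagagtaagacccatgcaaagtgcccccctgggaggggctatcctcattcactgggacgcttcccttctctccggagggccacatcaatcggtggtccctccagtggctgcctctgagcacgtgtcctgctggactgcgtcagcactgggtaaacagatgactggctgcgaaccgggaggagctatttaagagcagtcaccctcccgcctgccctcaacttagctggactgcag
Nts, chr10:102490369-102490668, minus strand: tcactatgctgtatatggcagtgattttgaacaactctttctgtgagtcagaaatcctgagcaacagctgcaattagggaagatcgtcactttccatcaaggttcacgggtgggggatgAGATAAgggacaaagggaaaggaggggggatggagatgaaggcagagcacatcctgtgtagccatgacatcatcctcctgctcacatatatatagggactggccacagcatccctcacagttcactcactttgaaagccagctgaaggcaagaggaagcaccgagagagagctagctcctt
Ghrl, chr6:113719862-113720161, minus strand: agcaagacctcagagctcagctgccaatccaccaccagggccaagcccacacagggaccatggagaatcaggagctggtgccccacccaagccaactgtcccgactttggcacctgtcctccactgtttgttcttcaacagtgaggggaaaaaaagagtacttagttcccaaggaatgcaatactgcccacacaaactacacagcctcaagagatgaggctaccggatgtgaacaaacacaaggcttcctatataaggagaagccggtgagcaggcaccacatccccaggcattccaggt
Ghrl, chr6:113719405-113719704, minus strand: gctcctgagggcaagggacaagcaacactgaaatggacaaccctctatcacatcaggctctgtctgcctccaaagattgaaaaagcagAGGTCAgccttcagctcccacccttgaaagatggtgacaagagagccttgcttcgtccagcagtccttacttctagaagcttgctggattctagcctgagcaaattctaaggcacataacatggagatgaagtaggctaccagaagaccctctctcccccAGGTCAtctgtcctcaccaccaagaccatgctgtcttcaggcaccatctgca
Tph1, chr7:46672488-46672787, minus strand: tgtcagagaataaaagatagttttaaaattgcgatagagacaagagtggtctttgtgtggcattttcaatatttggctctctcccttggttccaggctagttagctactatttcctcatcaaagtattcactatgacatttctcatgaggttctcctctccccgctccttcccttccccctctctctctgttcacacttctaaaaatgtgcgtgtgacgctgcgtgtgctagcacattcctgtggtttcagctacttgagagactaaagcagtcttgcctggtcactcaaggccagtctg
Tph1, chr7:46667328-46667627, minus strand: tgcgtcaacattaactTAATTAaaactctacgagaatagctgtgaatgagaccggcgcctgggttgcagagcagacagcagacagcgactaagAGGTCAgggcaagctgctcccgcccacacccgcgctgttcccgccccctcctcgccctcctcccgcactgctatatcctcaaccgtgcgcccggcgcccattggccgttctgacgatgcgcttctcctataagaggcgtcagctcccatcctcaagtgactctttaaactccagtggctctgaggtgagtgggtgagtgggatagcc
Counted by window, AGATAA was in 3 of the 15, those of *Gip*, *Cck* and *Nts*, and in 11.2% of all 32851 mouse windows of that length. TAATNA was in 2 of the 15, of *Gip* and *Tph1*, and in 26.5% of all windows. AGGTCA was in 4 of the 15, of *Ghrl*, where 2 windows overlap, *Sct* and *Tph1*, and in 16.3% of all windows. The pair of AGGTCA with 1 base between them, AGGTCANAGGTCA, was in none of the 15 windows and in 0.0396% of all windows. Among other letters searched, the cyclic AMP response element TGACGTCA, held by 1.79% of all windows, was in 1 of the 15, that of *Sst*. Its shorter core TGACG, which lies within TGACGTCA, was in 6 of the 15, of *Cck*, *Nts*, *Sst*, *Tph1* and *Chga*, and in 20.8% of all windows. TATAAA was in 3 of the 15, of *Gcg*, *Sct* and *Chga*, and in 13.6% of all windows, and CANNTG was in 14 of the 15 and in 72.3% of all windows. A match of letters is a description of the sequence and shows no binding.

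In the libraries, total counts ran from 38528522 to 50376371. *Ppara*, the gene that the transgene carries, was measured between 25.8 and 47.4 CPM (the count of a gene scaled to the total of its library) in controls, between 107 and 196 CPM in heterozygous and between 184 and 279 CPM in homozygous mice, with no overlap between controls and either IEC-*Ppara* group. Reads of the transgene and of the endogenous gene are counted together. *Fabp6*, the ileal bile acid binding protein, had a mean of 3720 CPM over all libraries, and all 8 genes of a list of distal intestine markers passed the filter described below. The summed level of 10 smooth muscle markers ran from 666 to 6197 CPM in controls, from 832 to 4556 CPM in heterozygous and from 4172 to 9819 CPM in homozygous libraries, and that of 10 B cell markers from 18.4 to 567 CPM, from 15.2 to 322 CPM and from 12.6 to 94.6 CPM. In homozygous against control, all 10 smooth muscle genes had a higher fitted level, with a median log2 difference of 0.57, and all 10 B cell genes a lower one, with a median of -2.79, while 10 epithelial genes had a median of -0.02. None of these 30 genes passed edgeR's test described below (at an unadjusted p under 0.05, all 10 B cell genes and none of the others did, beside 4.03% of all genes tested that were lower at that p), and *Myh11*, *Cd79a* and *Krt8* were the most abundant of their lists. The part of these shifts in the results below was not tested beyond the covariates given with them. The library homozygous 1 stood apart from the other 5 homozygous libraries in several of the hormone genes, and results are given with and without it.

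Levels were compared between genes in FPKM, which scales the count to the length of the gene as well. In controls, *Pyy*, which encodes the satiety peptide YY, had a mean level of 74.6 ± 9.93 FPKM (SD, n = 6). *Nts*, which encodes neurotensin, was at 73.3 ± 12.5 FPKM, *Sst*, which encodes the inhibitory hormone somatostatin, at 71.6 ± 14.8 FPKM, and *Sct*, which encodes secretin, at 71.5 ± 9.61 FPKM. These 4 genes had the highest FPKM of the 10, and their ranges over the control libraries overlapped. *Gcg* followed at 35.5 ± 5.71 FPKM and *Chga*, which encodes the granule protein chromogranin A, at 32.4 ± 3.61 FPKM, with ranges that overlapped each other and neither the group above nor the one below. *Gip* had 7.29 ± 2.95 FPKM and *Cck*, which encodes cholecystokinin, 6.60 ± 0.755 FPKM. The lowest means were those of *Tph1*, the rate-limiting enzyme of serotonin synthesis in these cells, at 2.12 ± 0.338 FPKM, and *Ghrl*, which encodes ghrelin, at 1.41 ± 0.325 FPKM, again with overlapping ranges. The control range of *Gip*, 1.75 to 10.15 FPKM, overlapped those of both. *Gip* and *Ghrl*, whose products come mainly from the duodenum and the stomach, were low in this ileum but were counted in every library, with 8 to 321 and 25 to 77 counts.

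The first comparison asked whether hormone gene levels differ between homozygous IEC-*Ppara* and control ileum. The lowest levels relative to controls were those of *Gip* and *Ghrl*, with log2 differences of -2.33 and -0.97. The other 8 genes had smaller differences, from -0.50 in *Cck* to 0.18 in *Gcg*, and without homozygous 1 from -0.73 in *Cck* to 0.16 in *Gcg*. None of the genes passed the main test, and *Gip* and *Ghrl* passed it without homozygous 1. Counts were tested with edgeR's quasi-likelihood test over the 12645 protein-coding genes above 3 CPM in at least 4 libraries, with Benjamini-Hochberg adjustment at 0.05. *Ghrl* lies below that filter in all libraries, so its values come from the same test without a filter over 38803 genes. *Gip* passed the filter through control, heterozygous and 1 homozygous libraries, so no summary over the 9 genes that passed is used as support. Against controls, 0 of these 9 genes were called, beside 0.411% of all genes (52 of 12645), and *Ghrl* was not called either, beside 0.16% of the genes in the fit without a filter. At an unadjusted p under 0.05, 4 of the 9 were lower, *Gip*, *Cck*, *Nts* and *Tph1*, beside 4.03% of all genes tested, and 0 were higher, beside 4.03%. DESeq2 called *Gip* (adjusted p = 0.007, with 1.08% of genes called) and, without a filter, *Ghrl* (adjusted p = 0.0138, with 0.666% called). The limma trend test called *Gip* alone (adjusted p = 0.0259, with 0.53% called), and limma-voom called none of the 10. Because the libraries come from whole tissue, fewer cells of a type and less RNA per cell cannot be told apart.

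*Gip* (chr11:96024545-96030831, GRCm38, plus strand) was measured at 1.20, 5.54 and 6.97 CPM as the lowest, median and highest control. In homozygous mice the corresponding levels were 0.171, 0.503 and 3.72 CPM, from 8 to 160 counts. Of the homozygous libraries, 5 lay between 0.171 and 0.893 CPM, below every control, and homozygous 1 at 3.72 CPM lay above control 5 at 1.20 CPM. The 95% Clopper-Pearson interval, which covers counting error only, was 0.0740 to 0.338 CPM for the lowest homozygous library and 0.911 to 1.56 CPM for control 5. For homozygous 4 it was 0.638 to 1.216 CPM and for homozygous 5 it was 0.471 to 1.025 CPM. Both overlap the interval of control 5. The mean level was 5.01 ± 2.03 CPM over the 6 controls and 1.00 ± 1.36 CPM over the 6 homozygous mice (SD). The fitted difference was -2.33 on the log2 scale (SE 0.605, 95% interval -3.60 to -1.06), a level 5.02-fold lower (edgeR adjusted p = 0.142). A two-sided exact permutation test over all arrangements of the libraries, on log2 CPM, gave p = 0.00433.

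*Ghrl* (chr6:113716119-113719880, minus strand), the gene of the hunger hormone ghrelin, ran from 1.03 to 2.00 CPM with a median of 1.44 CPM in controls. It ran from 0.558 to 1.26 CPM with a median of 0.699 CPM in homozygous mice. Again 5 homozygous libraries, at 0.796 CPM or less, were below every control, and homozygous 1 was above the lowest control. The log2 difference was -0.97 (SE 0.233), 1.96-fold lower (edgeR p = 0.000428, adjusted p = 0.163, exact permutation p = 0.00433).

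*Tph1* (chr7:46644641-46672537, minus strand) ran from 10.5 to 16.7 CPM with a median of 12.7 CPM in controls. All 6 homozygous libraries lay between 9.89 and 10.8 CPM, with a median of 9.99 CPM. The homozygous levels were tightly grouped, at 10.1 ± 0.335 CPM against 13.1 ± 2.08 CPM in controls (SD, n = 6 each), and only homozygous 1 and control 6 overlapped. The log2 difference was -0.37 (SE 0.105, edgeR adjusted p = 0.22, exact permutation p = 0.00433).

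*Cck* (chr9:121489824-121495694, minus strand), whose product stimulates gallbladder contraction and pancreatic secretion, ran from 7.38 to 9.93 CPM with a median of 8.61 CPM in controls and from 3.50 to 10.6 CPM with a median of 5.66 CPM in homozygous mice. In 5 homozygous libraries it was at 6.24 CPM or less, below every control, while homozygous 1 was the highest of all 18 libraries. The log2 difference was -0.50 (SE 0.205, edgeR adjusted p = 0.552, exact permutation p = 0.0303). *Nts* (chr10:102481756-102490486, minus strand), whose product promotes fat absorption and slows motility, had a median of 85.2 CPM (77.5 to 113 CPM) in controls and of 66.0 CPM (57.2 to 112.9 CPM) in homozygous mice. The same 5 libraries, at 72.9 CPM or less, were below every control. Its log2 difference was -0.34 (SE 0.153, edgeR adjusted p = 0.601, exact permutation p = 0.0693).

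The other hormone genes overlapped widely between both groups. *Sst* (chr16:23889573-23890958, minus strand) had a control median of 51.3 CPM, a homozygous median of 40.7 CPM and a log2 difference of -0.27 (95% interval -0.56 to 0.02). *Sct* (chr7:141278330-141279133, minus strand), whose product triggers bicarbonate secretion, had a median of 43.4 CPM in controls, lay between 29.0 and 56.1 CPM in homozygous mice and had a log2 difference of -0.15 (-0.43 to 0.14). These intervals contain 0 and also differences of the size seen in *Nts*.

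For the products of L cells, *Gcg* (chr2:62474530-62483650, minus strand) had a control median of 53.2 CPM and a homozygous median of 57.1 CPM, and it was the only one of the 10 genes with a higher fitted level, by 0.18 on the log2 scale (-0.05 to 0.41). *Pyy* (chr11:102106676-102107832, minus strand) had medians of 48.3 and 40.6 CPM and a log2 difference of -0.10 (-0.45 to 0.24). *Chga* (chr12:102554969-102565028, plus strand), which most endocrine cells share, had medians of 90.2 and 82.7 CPM and a log2 difference of -0.09 (-0.31 to 0.13). Exact permutation p-values for these 3 genes and for *Sst* and *Sct* were 0.149 to 0.413. The summed level of all 10 genes was 337 to 472 CPM in controls and 285 to 487 CPM in homozygous libraries.

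**Figure D1:**
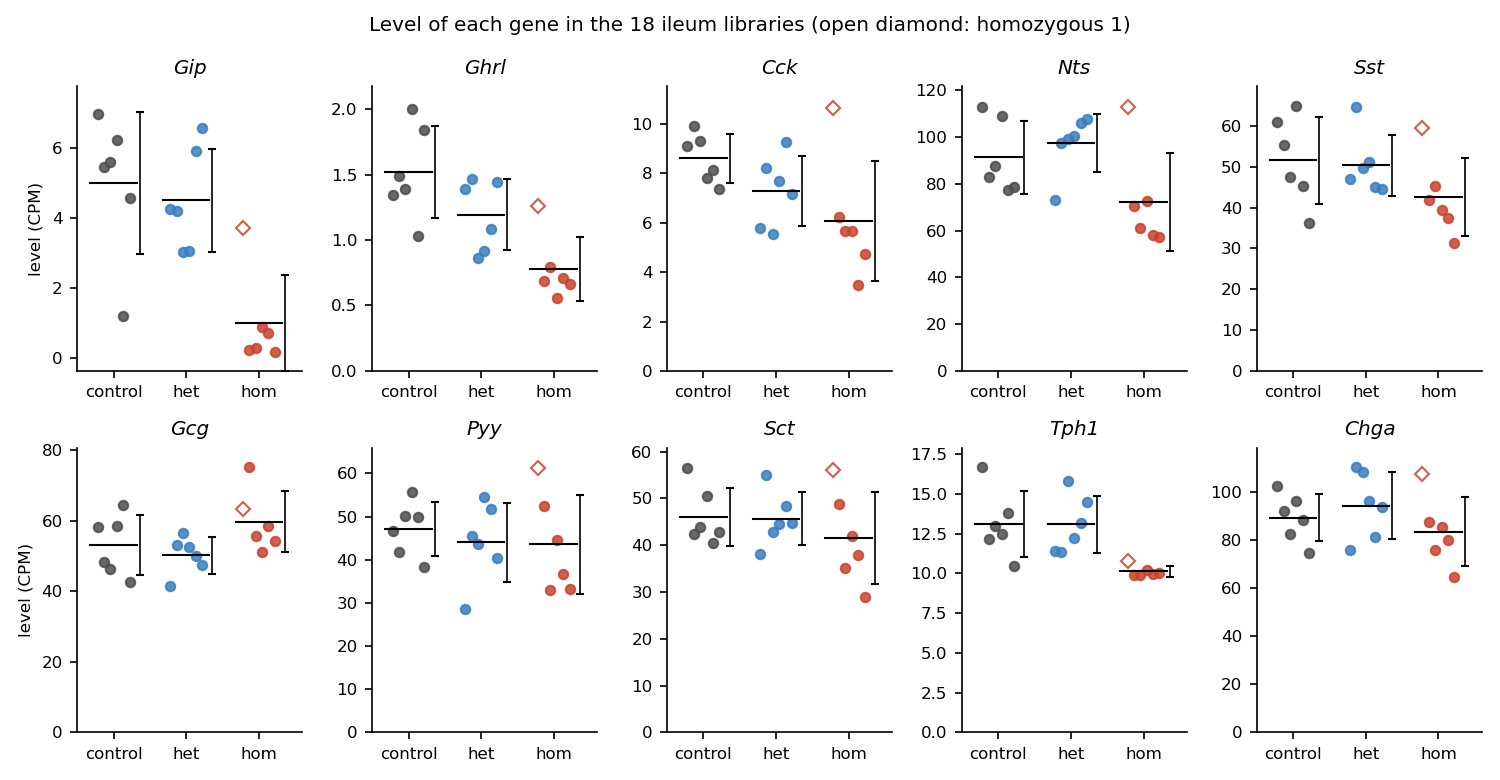
Level of each of the 10 genes in CPM (vertical axis, each panel with its own scale from 0) in every library of the control, heterozygous and homozygous groups; points are libraries, the line is the group mean, the bar is ± 1 SD (n = 6) and the open diamond is homozygous 1. In *Gip*, 5 homozygous libraries lie at or below 0.893 CPM and homozygous 1 lies at 3.72 CPM.

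Homozygous 1, a male, was the highest homozygous library in 9 of the 10 genes, *Gcg* being the exception. It was the highest of all 18 libraries in *Cck* (10.6 CPM) and *Pyy* (61.2 CPM). Its *Ppara* level, 216 CPM, lay within the 184 to 279 CPM of the other 5 homozygous libraries, as did that of the PPARα target *Pdk4* (110 CPM against 61.9 to 179 CPM), and its *Fabp1* was 172 CPM against 137 to 165 CPM. Its B cell score, the mean log2 CPM of the 10 markers, was 3.05 against -0.16 to 0.68 in the other 5. The part of that in its hormone levels was not tested.

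Without homozygous 1, a choice made after its values were seen, the mean homozygous level of *Gip* was 0.458 ± 0.322 CPM (SD, n = 5). Against controls, its log2 difference was then -3.46 (SE 0.479), a level 11.0-fold lower (edgeR adjusted p = 0.00107, beside 0.444% of 12610 genes called). *Ghrl*, at 0.683 ± 0.0858 CPM, had a log2 difference of -1.15 (SE 0.227), 2.22-fold lower (edgeR adjusted p = 0.035, beside 0.174% called without a filter). *Cck* at -0.73 (adjusted p = 0.0667), *Nts* at -0.51 (adjusted p = 0.0939) and *Tph1* at -0.38 (adjusted p = 0.261) did not pass the edgeR test. Nor did *Sst*, whose log2 difference of -0.39 (adjusted p = 0.319) was then of the size of that of *Tph1*. *Sct* was at -0.25, *Pyy* at -0.22, *Chga* at -0.17 and *Gcg* at 0.16 on the same scale (edgeR adjusted p = 0.609 to 0.691). Every one of the 5 remaining homozygous libraries was below every control in 5 of the 10 genes, *Gip*, *Ghrl*, *Cck*, *Nts* and *Tph1*, beside 0.696% of all genes tested. With all 6 homozygous libraries, 0 of the 10 genes were separated in this way from controls, beside 0.261%. Since homozygous 1 was named for its high levels in these genes, the separation of the rest is a description of those libraries and no independent result.

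The *Gip* difference was of like size when other measures were put in the edgeR fit. It was -2.41 with sex as a covariate (adjusted p = 0.206), -2.25 with the B cell score (adjusted p = 0.207), -2.32 with the smooth muscle score (adjusted p = 0.217), -2.43 with the epithelial score (adjusted p = 0.114) and -2.56 with the difference between scores of proximal and distal intestine genes (adjusted p = 0.147). By sex, *Gip* was 4.59 to 6.97 CPM in female and 1.20 to 5.61 CPM in male controls. In homozygous mice it was 0.223 and 0.709 CPM in the 2 females and 0.171 to 3.72 CPM in the 4 males. The low levels were thus present in both sexes.

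The second comparison placed the heterozygous libraries beside the same controls, so both IEC-*Ppara* comparisons share the 6 control libraries. None of the 10 genes was called in heterozygous against control, beside 0.293% of all genes (37 of 12645), and at an unadjusted p under 0.05, 0 of the 9 tested were lower, beside 2.53%, and 0 were higher, beside 2.76%. DESeq2, limma-voom and the limma trend test called none of the 10 either. *Gip* ran from 3.04 to 6.59 CPM with a median of 4.23 CPM in heterozygous mice, within the range of the controls. Its log2 difference was -0.12 with a 95% interval of -1.30 to 1.07, which does not exclude a level lower by more than 1 on the log2 scale. *Ghrl* ran from 0.865 to 1.46 CPM with a median of 1.24 CPM, between the medians of the controls and the homozygous mice, and its log2 difference from controls was -0.32 (-0.79 to 0.16). *Cck* had a median of 7.42 CPM (5.55 to 9.29 CPM) and a log2 difference of -0.21 (-0.64 to 0.22). For the other 7 genes the log2 differences ran from -0.06 in *Pyy* to 0.12 in *Nts*. Over all 10 genes, the exact permutation p-values of this comparison ran from 0.0931, in *Cck*, to 0.994.

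**Figure D2:**
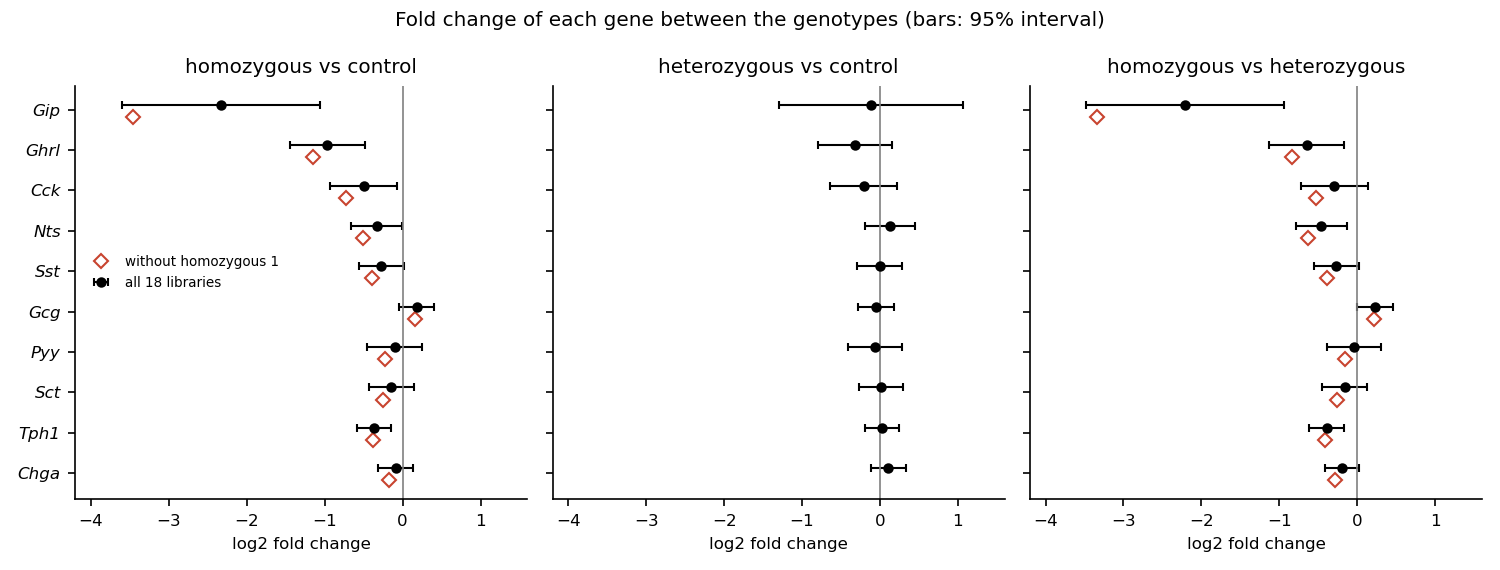
Log2 difference in level of each of the 10 genes in the 3 comparisons (horizontal axis, edgeR, with 95% interval); open diamonds give the difference without homozygous 1. *Gip* is at -2.33 in homozygous against control and at -2.21 in homozygous against heterozygous mice, and at -0.12 in heterozygous against control.

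The third comparison, homozygous against heterozygous, separates mice that all carry the Cre. *Gip* had a log2 difference of -2.21 (SE 0.604), a level 4.63-fold lower in homozygous mice (edgeR p = 0.00178, adjusted p = 0.475, exact permutation p = 0.00649). *Tph1* had a log2 difference of -0.40 (SE 0.105, edgeR adjusted p = 0.475). Its 6 homozygous libraries, 9.89 to 10.8 CPM, were all below its 6 heterozygous libraries, 11.4 to 15.8 CPM, and the exact permutation p of 0.00216 is the smallest that 6 against 6 libraries allow. It was the only one of the 10 genes without overlap in this direction, beside 0.134% of all genes tested. *Nts* had a log2 difference of -0.46 (edgeR adjusted p = 0.572, exact permutation p = 0.0368) and *Ghrl* of -0.65 (adjusted p = 0.537, exact permutation p = 0.0217). *Gcg* had a higher level, by 0.23 (95% interval 0.001 to 0.46, edgeR p = 0.0491, adjusted p = 0.642, exact permutation p = 0.0303).

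In this comparison 0 of the 9 genes tested were called, beside 0.00791% of all genes, which is 1 gene. At an unadjusted p under 0.05, 3 of the 9 were lower, *Gip*, *Nts* and *Tph1*, beside 3.72% of all genes tested, and 1 of the 9, *Gcg*, was higher, beside 3.89%. None of the 10 was called by DESeq2, limma-voom or the limma trend test. Without homozygous 1, *Gip* was called (log2 difference -3.34, 10.1-fold lower, edgeR adjusted p = 0.027, beside 0.00793% of genes), and *Gip*, *Ghrl*, *Nts* and *Tph1* were below every heterozygous library, beside 0.641% of all genes tested. *Ppara* itself differed by 0.59 on the log2 scale between these groups (edgeR adjusted p = 0.485), and the ranges of its level overlapped.

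Correlations between the genes were read across libraries. For each of the 45 pairs Pearson's r of log2 CPM was computed with 100000 permutations and adjusted over the 45. Because 5 homozygous libraries lay below all controls in *Gip*, *Ghrl*, *Cck*, *Nts* and *Tph1*, values after subtracting the mean of each genotype are given first for these genes. Over 18 libraries with genotype means subtracted, the median r was 0.476, against 0.071 over all pairs of tested genes, and 16 pairs had an adjusted permutation p under 0.05. An r above 0.7 was found in 9 of the 45 pairs and in 3.15% of all pairs of tested genes. After homozygous 1 was left out as well, 17 libraries gave a median r of 0.371, against 0.077 over all pairs, and 7 pairs with an adjusted permutation p under 0.05, while 4 of the 45 pairs and 3.47% of all pairs had an r above 0.7. The 7 were *Nts* with *Sct* (r = 0.763), *Pyy* (0.701) and *Chga* (0.643), *Chga* with *Sst* (0.743), *Sct* (0.711) and *Gcg* (0.648), and *Gcg* with *Pyy* (0.652), with adjusted permutation p-values of 0.0115 to 0.0471. No pair with *Gip*, *Ghrl*, *Cck* or *Tph1* was among them. Taken separately, the 6 controls gave a median r of 0.429 over the 45 pairs, the 6 heterozygous libraries 0.20 and the 6 homozygous libraries 0.728. Homozygous 1 is one of the last.

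*Nts* and *Sct*, both highest in control 1 and homozygous 1, formed one of the closest pairs. Over all 18 libraries r was 0.818 and Spearman's rho 0.822 (adjusted permutation p = 0.00036 and 0.00195), and r was 0.752 when the 2 libraries with the most extreme *Nts* were left out. Taken by genotype, r was 0.965 for controls, 0.610 for heterozygous and 0.859 for homozygous libraries. *Sst* and *Chga* had an r of 0.820 and a rho of 0.773 (adjusted permutation p = 0.00036 and 0.00394), an r of 0.772 without the 2 farthest libraries, and 0.927, 0.679 and 0.878 within the genotypes. The r of both pairs was thus positive inside each genotype, but r within a single genotype was not tested.

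*Gip* and *Ghrl* had an r of 0.618 with genotype means subtracted (adjusted permutation p = 0.0411), which became 0.371 without homozygous 1 (adjusted permutation p = 0.283). Inside each genotype r was 0.674 for controls, 0.642 for heterozygous and 0.659 for homozygous libraries. Over all 18 libraries, which spans the genotype difference, r was 0.819 and rho 0.80 (adjusted permutation p = 0.00036 and 0.00195), and r was 0.777 without the 2 lowest libraries, homozygous 2 and homozygous 6. *Gip* and *Nts* had an r of 0.706 with genotype means subtracted (adjusted permutation p = 0.027) and of 0.429 without homozygous 1 (adjusted permutation p = 0.24). Relations of *Gip* inside genotypes therefore rested in part on 1 library.

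Over all 18 libraries, which includes the genotype differences, *Gcg* had no pair past the threshold. There 40 of the 45 pairs had a positive r, with a median of 0.568 against 0.063 over all pairs of tested genes. An r above 0.7 was found in 10 of the 45 and in 2.71% of all pairs, and 24 had an adjusted permutation p under 0.05 for r and 21 for rho. *Nts* had 8 such pairs among its 9, *Gip*, *Cck*, *Sst* and *Sct* 6, *Chga* 5, *Ghrl* and *Pyy* 4, and *Tph1* 3. All 5 negative values involved *Gcg*, and the lowest was with *Gip* (r = -0.49, rho = -0.43, adjusted permutation p = 0.0629 and 0.121). With genotype means subtracted, *Gcg* had a median r of 0.455 with the other 9 genes, above those of *Ghrl* (0.369) and *Tph1* (0.237). It then had 2 pairs past the threshold, with *Pyy* (r = 0.630, adjusted permutation p = 0.027) and with *Chga* (r = 0.622, adjusted permutation p = 0.0297).

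**Figure D3:**
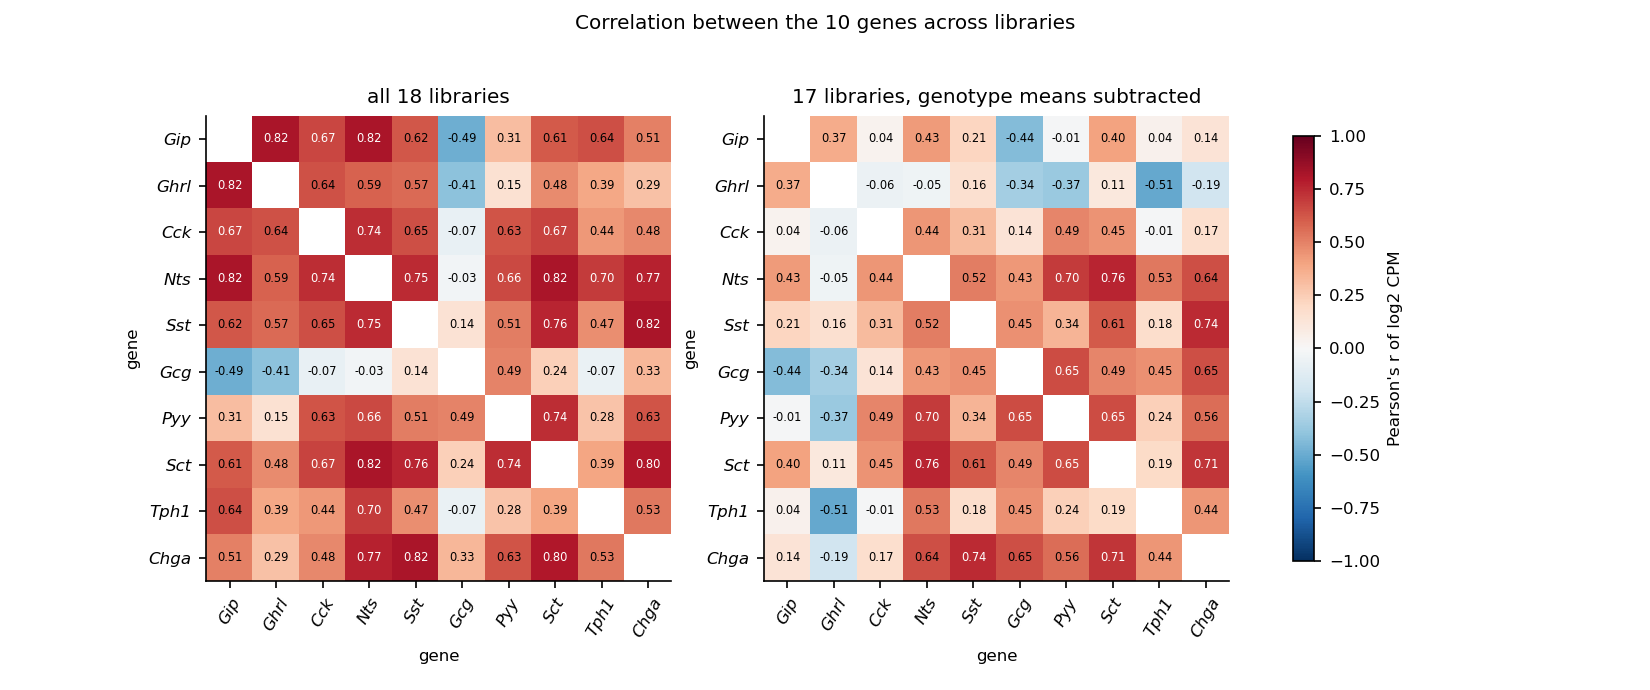
Pearson's r of log2 CPM between the 10 genes (both axes), over all 18 libraries (left) and over 17 libraries, without homozygous 1 and with the mean of each genotype subtracted (right); red is positive and blue negative. *Gip* with *Ghrl* is 0.82 on the left and 0.37 on the right, and *Sst* with *Chga* is 0.82 and 0.74.

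**Figure D4:**
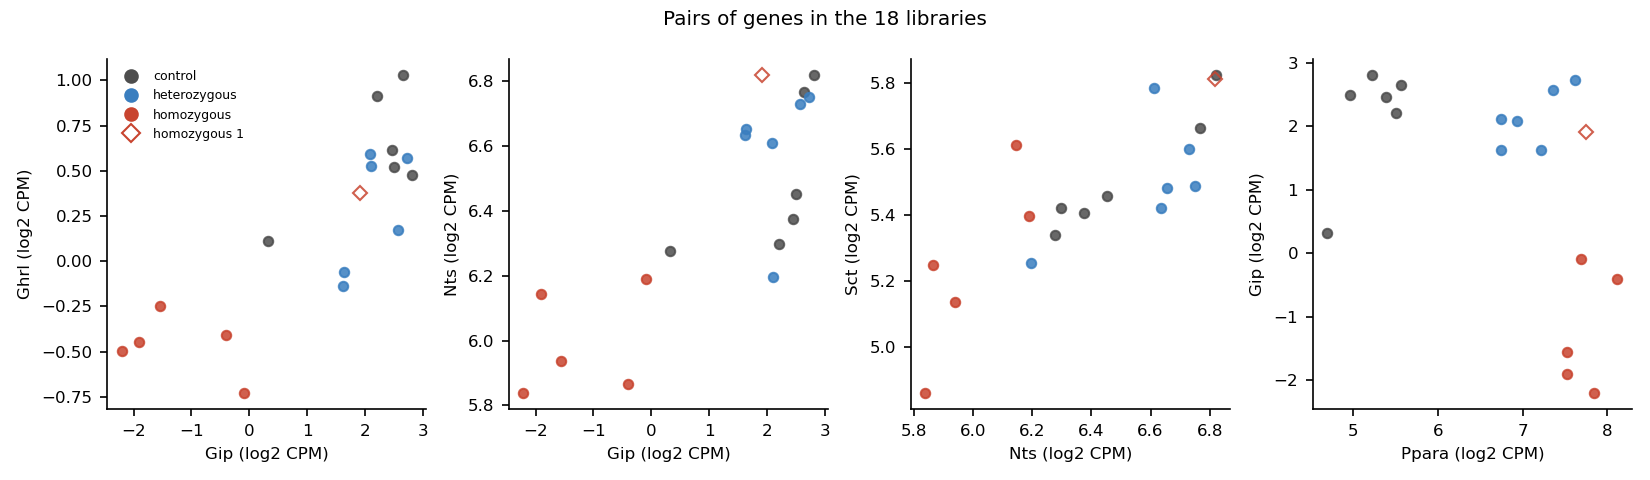
Level in log2 CPM of *Gip* against *Ghrl*, *Gip* against *Nts*, *Nts* against *Sct* and *Ppara* against *Gip*, with 1 point per library by genotype. The 5 homozygous libraries with low *Gip* are separate from all other libraries in *Gip*, and homozygous 1 lies within the heterozygous range in *Gip* and *Ghrl* and just above it in *Nts*, *Sct* and *Ppara*.

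Several measures of tissue make-up varied across the same libraries, and their r with the hormones is given as a description over 18 libraries. Within each library, these measures and the hormone levels share the same depth and dissection. The epithelial score had an r of 0.56 with *Pyy* and of 0.20 with *Gip*. The B cell score had an r of 0.55 with *Cck*, 0.50 with *Sst*, 0.42 with *Ghrl* and 0.39 with *Gip*. The smooth muscle score had an r of -0.37 with *Gip* over all libraries and of -0.03 with genotype means subtracted, and the difference between proximal and distal scores had an r of 0.02 with *Gip*. With the smooth muscle score regressed out beside genotype, 16 of the 45 pairs had an adjusted permutation p under 0.05, and with the proximal to distal difference 18.

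Genes most like each hormone gene over the 18 libraries were ranked by Pearson's r of log2 CPM among the tested genes outside the 10. For *Gip* they were *Leap2* (r = 0.937), *Rnase1* (0.901), a secreted ribonuclease, and *Pipox* (0.867), a peroxisomal oxidase. *Leap2* encodes an antimicrobial peptide that also blocks the ghrelin receptor. *Leap2* ran from 1.54 to 5.65 CPM in controls and from 0.686 to 2.58 CPM in homozygous mice, with a log2 difference of -1.49 (SE 0.368, edgeR adjusted p = 0.118). Without homozygous 1 the r of *Leap2* with *Gip* was 0.940. Every r in this paragraph includes the genotype differences, and none was computed with genotype means subtracted. *Nts* was most like *Mtarc2* (0.937), *Fbp1* (0.897), an enzyme of gluconeogenesis, and *Khk* (0.894), the first enzyme of fructose breakdown. *Ghrl*, below the filter, was not included. For the others the closest gene was *Pym1* for *Cck* (0.858), *Plvap* for *Sst* (0.902), *Mrps28* for *Gcg* (0.820), *Macrod1* for *Pyy* (0.900), *Sdhb* for *Sct* (0.871), *Plbd1* for *Tph1* (0.788) and *Tiprl* for *Chga* (0.859). The 10 genes examined here were left out of this ranking.

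Further genes of the endocrine system of the gut were read from fixed lists. Of 14 other gut peptide genes, 5 were tested and 0 were called in homozygous against control, with 1 of them higher at an unadjusted p under 0.05, beside 4.03% of all genes tested. This was *Tac1*, the substance P gene, with a log2 difference of 0.29 (edgeR adjusted p = 0.55). *Fgf15*, the bile acid feedback hormone of ileal enterocytes, had a mean of 42.1 ± 27.5 CPM in control and of 20.9 ± 9.98 CPM in homozygous ileum (SD over 6 mice each), and its log2 difference of -0.99 did not pass the edgeR test (adjusted p = 0.644). *Ppy* and *Insl5* were below 1 CPM in every library.

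Of 20 genes of secretory granules and prohormone processing, 18 were tested and 0 were called, 13 had a higher and 5 a lower fitted level, and the median log2 difference was 0.11, against 0.00 over all genes tested. *Chgb*, chromogranin B, was the most abundant at 132 CPM. The smallest adjusted p was that of *Pcsk1n*, an inhibitor of prohormone convertase (0.42, edgeR adjusted p = 0.687), followed by *Pam*, which amidates peptide hormones (0.24, edgeR adjusted p = 0.692). The mean log2 CPM of these granule genes had an r of 0.907 with that of enteric neuron markers over the 18 libraries, so it is not a measure of endocrine cells alone. Enteric neuron markers had higher fitted levels in homozygous mice in 8 of 8 tested genes, with a median of 0.64, while 51.9% of all genes tested were lower. The mean log2 CPM of these neuron markers had an r of 0.981 with that of the smooth muscle markers over the 18 libraries. Of the 8, 1 was called, beside 0.411% of all genes tested. This was *Ret*, the receptor of glial cell line-derived factor, at 0.90 (SE 0.121, edgeR adjusted p = 0.000465). Its mean was 17.02 CPM in control, 21.95 CPM in heterozygous and 31.53 CPM in homozygous libraries. In heterozygous against control the median log2 difference of the 8 genes was -0.017.

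Of 16 transcription factors of the endocrine lineage, 6 were tested and 0 were called. *Etv1* had a log2 difference of 0.52 (edgeR adjusted p = 0.332) and *Insm1* of -0.37 (edgeR adjusted p = 0.612). *Neurog3*, which starts the lineage and is named here after its values were seen, was below the filter. It ran from 0.496 to 1.84 CPM in controls and from 0.455 to 0.692 CPM in homozygous mice, with a log2 difference of -0.78 in the fit without a filter (edgeR adjusted p = 0.54).

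Of 23 receptors and genes of hormone clearance, 5 were tested and 0 were called. *Dpp4*, which inactivates both incretins, was the most abundant at 693.5 CPM over all libraries. *Mme*, the peptidase neprilysin, had a log2 difference of -0.46 (edgeR adjusted p = 0.601) and *Slc6a4*, the serotonin transporter, of -0.23 (edgeR adjusted p = 0.616). Among genes that mark the position along the gut, 0 of 6 proximal and 0 of 8 distal genes tested were called. *Ada* differed by 1.25 (edgeR adjusted p = 0.28) and *S100g*, a calcium-binding protein of the duodenum, by -1.08 (adjusted p = 0.53) on the log2 scale. *Fabp6* had a mean level of 4269 ± 871 CPM in control and of 2897 ± 978 CPM in homozygous ileum (SD over 6 mice each), a log2 difference of -0.56 (edgeR adjusted p = 0.397). *Slc51a*, a subunit of the basolateral bile acid exporter, had a log2 difference of -0.30 (edgeR adjusted p = 0.613). In the lists of other cell types, the genes with the lowest p were *Tagln* (0.48) and *Mylk* (0.51) for smooth muscle, *Ret* and *Elavl4* (0.76) for enteric neurons, *Fcrla* (-2.09) and *Cd22* (-2.20) for B cells, *Hdc* (0.84) and *Kit* (0.18) for mast cells, *Elf3* (0.11) and *Vil1* (-0.11) for epithelium, *Cela1* (0.39) for pancreas and *Muc6* (0.11) for stomach, as log2 differences. Of these, only *Ret* was called by edgeR, and the adjusted p of the others ran from 0.376 to 0.963. Over all 12645 genes tested, 1019 had an unadjusted p under 0.05 in this comparison, 669 in heterozygous against control and 962 in homozygous against heterozygous.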

How the data were processed

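Ileal RNA-seq libraries of 18 mice, grouped by the genotype in the sample labels, were analysed. The authors aligned paired reads of poly-A RNA to GRCm38 (Ensembl annotation) with STAR and assigned uniquely aligned reads to genes with featureCounts. These deposited counts are raw. The CPM and FPKM values deposited by the authors divide these counts by the library total, and FPKM also by gene length. The log2 CPM deposited by the authors were moderated by a prior count of a size not given in the sources used here. They were used for the limma trend test and as an alternative for the correlations. Total counts of 38528522 to 50376371 per library put 3 CPM above 100 counts.

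From the counts, genes above 3 CPM in at least 4 libraries were kept (13709, of which 12645 protein-coding) and compared with edgeR 4.0.16 (glmQLFTest, TMM normalization, 1 coefficient per genotype, all 18 libraries in 1 fit) in R 4.3.3, with Benjamini-Hochberg adjustment at 0.05. Exact permutation tests were two-sided on log2 CPM with a prior count of 2. Tables were handled in Python 3.11.15 with SciPy 1.17.1. The scripts were tested on simulated data. The 10 genes and all gene lists were chosen with earlier results of these data known. The genes named are the 10 with their values, *Ppara*, for each other list the genes called and the 2 tested genes with the lowest p for homozygous against control, the most abundant marker of other cell types, and the 3 genes outside the 10 most correlated with each of the 9 that passed the filter. Of these 3 the text gives all for *Gip* and *Nts* and otherwise the first. *Pdk4*, *Fabp1*, *Ppy*, *Insl5* and *Neurog3* fall outside this rule and were chosen after their values were seen. *Chgb* and *Dpp4* also fall outside it and are named as the most abundant genes of their lists. Marker lists of mast cells, pancreas and stomach had 2, 1 and 1 genes above the filter and 0 called. No 2 libraries of the same genotype were alike within sampling noise. The labels number the libraries as replicates, and the study describes them as tissue samples from mice of each genotype. Each library was taken as 1 mouse, so p-values measure the spread between mice.

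Alternatives were DESeq2 1.42.0, limma 3.58.1 (voom and trend), other size factors, filters and biotypes, only the 12 libraries compared, covariates for sex and for smooth muscle, epithelial and proximal to distal scores, a robust fit, the replicate number as a block, and leaving out each library. The B cell covariate, and correlations with genotype means subtracted and without homozygous 1, were added after the data were seen. Other assays of the study were not analysed here.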

Additional observations from a re-analysis of the deposited data

Results flagged for a closer look

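In each gene and genotype the lowest and highest of the 6 libraries were compared with the rest, and a library was singled out where its gap to the nearest other, divided by the range of the group, exceeded Dixon's 95% critical value. This held in 5 of the 30 groups examined, where chance alone gives about 1 in 20. Homozygous 1 was high in *Gip* (3.72 CPM, with 0.171 to 0.893 CPM in the other 5), in *Ghrl* (1.26 CPM, with 0.558 to 0.796 CPM) and in *Nts* (113 CPM, with 57.2 to 72.9 CPM). Heterozygous 1 was low in *Nts* (73.2 CPM, with 97.7 to 107.6 CPM in the other 5). Heterozygous 2 was high in *Sst* (64.7 CPM, with 44.6 to 51.1 CPM in the other 5). The 3 genes in which homozygous 1 stood apart are not independent of each other across libraries. *Gip* in control 5, at 1.20 CPM with 4.59 to 6.97 CPM in the other controls, did not exceed the limit.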

How the results depend on the processing

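Between homozygous and control, all 10 log2 differences kept their sign under every alternative run. The *Gip* difference ran from -2.97 to -2.25 over the other fits and from -3.46 to -2.10 when 1 library was left out (adjusted p 0.00107 to 0.293), and it was past 0.05 with DESeq2, with limma's trend test and without homozygous 1. *Ghrl* ran from -1.15 to -0.87 with 1 library left out and was past 0.05 with DESeq2 and without homozygous 1. The number of the 10 genes called was 2 with DESeq2, 1 with limma's trend test and 0 to 2 with 1 library left out in homozygous against control, 0 to 1 in homozygous against heterozygous, and 0 throughout in heterozygous against control. *Gip* was not tested where at least 10 counts in every library were required. Over all genes, 52 calls in homozygous against control became 136 with DESeq2 and 43 to 65 with 1 library left out. The 37 calls in heterozygous against control became 82 with DESeq2, 23 with only the 12 libraries compared and 25 to 55 with 1 library left out. The 1 call in homozygous against heterozygous became 9 with DESeq2, 0 to 2 with 1 library left out, and 0 with DESeq2 size factors, no filter, 10 counts in every library, all biotypes, only the 12 libraries compared, and covariates for sex, smooth muscle, proximal to distal position or B cells. Why these counts moved was not tested. Pairs of genes with an adjusted permutation p under 0.05 numbered 24, 20 to 28 with 1 library left out, and 7 with genotype means subtracted and homozygous 1 left out.

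Signs that turned were all of small differences far from the threshold. In heterozygous against control, *Gip* was 0.016 with limma-voom and 0.098 with the B cell covariate (-0.32 to 0.0067 with 1 library left out). *Sst* was 0.0014 with DESeq2 or its size factors, 0.0078 with limma-voom, 0.0026 without a filter, 0.0065 with all biotypes, 0.011 with sex, 0.017 with smooth muscle, 0.015 with proximal to distal position and 0.044 with the B cell covariate (-0.073 to 0.056 with 1 library left out). *Sct* was -0.016 with library size only, -0.014 with limma's trend test, -0.052 with the epithelial and -0.0015 with the proximal to distal covariate (-0.033 to 0.085 with 1 library left out). *Tph1* was -0.0046 with library size only, -0.0059 with the B cell covariate (-0.030 to 0.114 with 1 library left out) and -0.026 as a difference in CPM. With 1 library left out, *Gcg* ran from -0.084 to 0.010 and *Pyy* from -0.126 to 0.043. In homozygous against heterozygous, *Pyy* was 0.083 with the epithelial covariate and -0.160 to 0.037 with 1 library left out. 

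Replicate numbers are shared between the genotypes, and the deviations of same-numbered libraries correlated from -0.606 to 0.642. Libraries with different numbers were not compared in this way, so these values cannot decide whether the numbers pair the mice. With the number as a replicate block, calls were 49, 22 and 0 in the 3 comparisons, *Sst* in heterozygous against control was 0.014, and none of the 10 genes was called. Counting error limits *Gip*, with 8 to 40 counts in 5 homozygous libraries, and *Ghrl*, with 25 to 77 counts.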
